A study of Drosophila montana with 9 samples.

Results

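Probes for 8 genes of the phospholipase C and calcium cascade of phototransduction were followed in *Drosophila montana* females: *norpA*, *inaC*, *inaF*, *rdgB*, *CdsA*, *Cam*, *Ankyrin* and the phosducin-like *CG7650*. They were found by the gene name carried in the probe name and in the study's gene list, and all 15 of their probes were kept, out of the 208 distinct experimental probes of 108 genes (110 with *Actin42A* and *Histone 3.3A*) on the candidate gene microarray. Diapausing females were 14 days old and had been kept at 16°C with a daily light period of 16 h. Reproducing females had the same age and temperature but continuous light (24 h). The age of young females was 1 day, and they were taken straight from the culture, in continuous light at 19°C. Each group had 3 arrays, and each array held whole-body RNA of 13 pooled females. All females belonged to isofemale line O3F66 from Oulanka, so the groups represent a single inbred stock. Between diapausing and reproducing females the light regime and the reproductive state changed together, and between these groups and young females age, light or temperature changed together, so their parts cannot be told apart. Nothing in the labels says whether the samples came from separate cultures, and p-values therefore measure the spread between these samples only.

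In photoreceptors of *D. melanogaster*, light-activated rhodopsin works through a G protein on phospholipase C, the product of *norpA*, which splits the membrane lipid PIP2 into diacylglycerol and inositol trisphosphate. This opens the TRP channels and lets calcium in, and calcium, partly through calmodulin (*Cam*) and the eye protein kinase C (*inaC*), shuts the response off again. The lipid is then rebuilt in a cycle that needs CDP-diacylglycerol synthase (*CdsA*) and the phosphatidylinositol transfer protein *rdgB*. The product of *inaF* is a small membrane protein required for TRP channel function, ankyrins anchor membrane proteins to the cytoskeleton, and phosducins bind G protein beta and gamma subunits.

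The probes were 60-base oligonucleotides synthesized on the array. Both *norpA* probes are shown because they lie on opposite strands, with the 22 bases in which each is the reverse complement of the other in capitals.
norpA_1F: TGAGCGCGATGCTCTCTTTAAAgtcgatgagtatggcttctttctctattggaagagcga
norpA_1F_K: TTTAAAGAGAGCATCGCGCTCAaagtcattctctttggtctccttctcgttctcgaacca
The *CdsA* probes are shown because the clearest differences between groups were found with them. They shared no stretch of 15 or more bases, so they measured separate sites of the gene.
CdsA_1_1: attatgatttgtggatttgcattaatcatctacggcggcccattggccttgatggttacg
CdsA_1_2: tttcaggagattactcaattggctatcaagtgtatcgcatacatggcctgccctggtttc
cdsA_2: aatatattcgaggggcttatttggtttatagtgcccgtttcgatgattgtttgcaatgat
The first *CG7650* probe is shown because none of its 3 reading frames was free of stop codons in the strand on the array, while 2 were on its reverse complement.
CG7650_1_1L: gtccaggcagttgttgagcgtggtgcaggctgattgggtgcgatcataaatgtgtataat
The other 14 probes each had 1 to 3 stop-free frames in the strand on the array. A free frame over so short a stretch does not fix the coding strand, and the genomic position of the probes was not analysed here.

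The signal was measured after labelling with 1 dye (Cy3), and a spot was counted as detected where the scanner software marked it as well above background. By this mark 7 of the 15 probes were detected on all 9 arrays: norpA_1F, the 3 *CdsA* probes, cam_1 and both *Ankyrin* probes. Of the others, 6 were detected on between 1 and 6 arrays, and inaC_1R and CG7650_1_2L on none. Values below are normalized signals on the log2 scale (variance stabilizing normalization, VSN, fitted with the spike-in probes), with means ± SD of 3 arrays unless stated otherwise. They compare arrays for 1 probe and not probes with each other, since each probe binds with its own efficiency. Among the arrays, between 127 and 157 of the 208 probes were detected, with the lowest number on reproducing replicate 40. That array also had the largest spread of negative control spots (SD 20.4 against 2.2 to 12.7) and the widest range of the position factors used to level signals across an array (0.241 to 1.93). The fits were repeated without it.

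**Figure D1:**
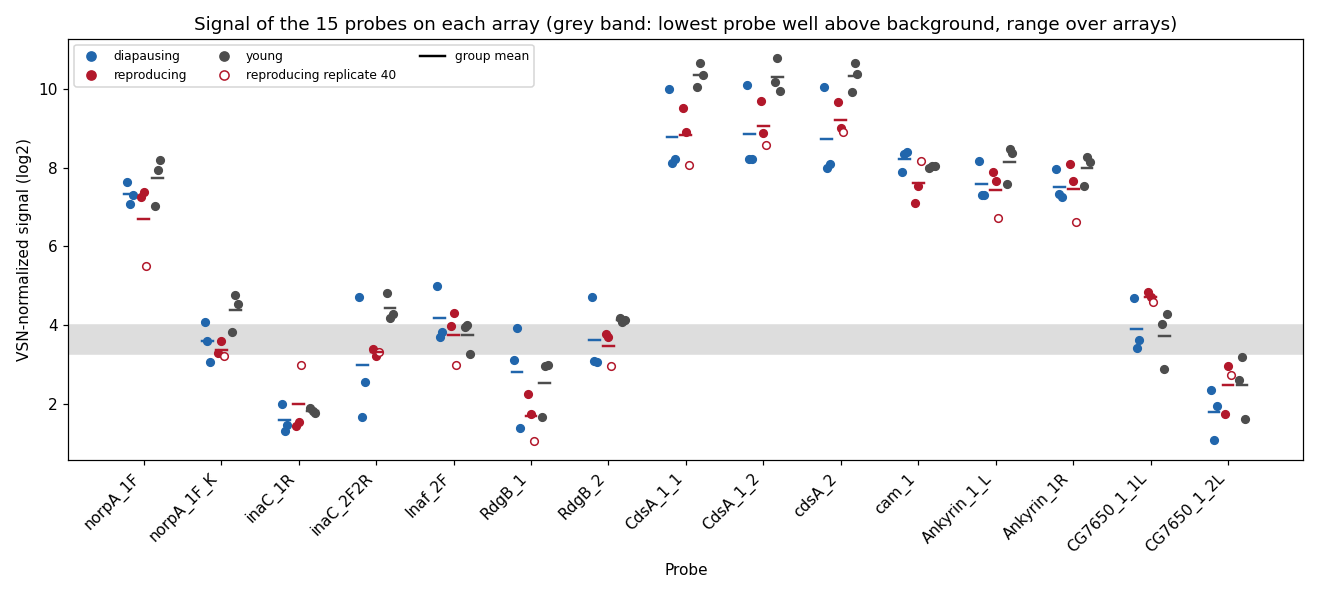
VSN-normalized signal (log2, vertical axis) of each of the 15 probes (horizontal axis) on the 9 arrays. Points are arrays, coloured by group, with reproducing replicate 40 open; short lines are group means of 3 arrays, and the grey band spans, over the arrays, the lowest signal of any probe well above background (3.27 to 4.01). The 7 probes detected on all arrays lie above the band.

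No probe of the cascade was called in any of the 3 comparisons. The criteria were an adjusted p under 0.05 in limma, with Benjamini-Hochberg adjustment over all 208 probes, and a fold change over 2. Between diapausing and reproducing females 0 of the 15 probes were called, where 2 of all 208 probes (0.962%) were. Between diapausing and young females 0 of 15 were called against 3.37% of all probes, and between reproducing and young females 0 of 15 against 4.81%. At an unadjusted p under 0.05, these 15 probes counted 0, 3 and 2 in the 3 comparisons, beside 26, 26 and 40 of all probes (12.5%, 12.5% and 19.2%). Without reproducing replicate 40, 0 of 15 were again called in each comparison, against 1.44%, 5.77% and 2.88% of all probes. Over all probes the calls divided into 2 higher and 0 lower, 3 higher and 4 lower, and 3 higher and 7 lower in the first named group. With the processed signal relative to the 75th percentile of the array they divided into 7 and 4, 16 and 1, and 29 and 11.

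After VSN, *CdsA* had the largest fitted differences from young females among the 7 probes detected on all arrays. On the arrays of young females CdsA_1_1 was at 10.06, 10.67 and 10.36, on those of diapausing females at 10.01, 8.12 and 8.23, and on those of reproducing females at 9.51, 8.91 and 8.06 (replicate 40). All 6 arrays of the older females lay below the 3 arrays of young females, while diapausing replicate 27 lay close to the young arrays and apart from the other 2 diapausing arrays. The fitted log2 difference was -1.58 (SE 0.57) between diapausing and young females (limma, adjusted p = 0.247) and -1.54 (SE 0.57) between reproducing and young females (limma, adjusted p = 0.193). Over all 208 probes the median difference was -0.48 and -0.18 in these comparisons.

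The other *CdsA* probes gave the same order of groups relative to young females. cdsA_2 was at 10.33 ± 0.37 in young, 8.72 ± 1.16 in diapausing and 9.21 ± 0.42 in reproducing females, and CdsA_1_2 at 10.30 ± 0.44, 8.86 ± 1.09 and 9.05 ± 0.58. Over the 9 arrays the 3 probes correlated pairwise at r = 0.954 to 0.972 (Pearson, a description). Their arrays of reproducing females all lay below those of young females, and diapausing replicate 27 was within the young range for CdsA_1_2 (10.11) and cdsA_2 (10.06). The limma log2 difference between diapausing and young females was -1.45 (SE 0.57, adjusted p = 0.275) for CdsA_1_2 and -1.61 (SE 0.56, adjusted p = 0.240) for cdsA_2. Between reproducing and young females it was -1.25 (SE 0.57, adjusted p = 0.274) and -1.12 (SE 0.56, adjusted p = 0.313).

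The call for *CdsA* in diapausing females turned on replicate 27. Without that array the 3 *CdsA* probes were called lower in diapausing than in young females, with log2 differences of -2.30, -2.18 and -2.39 for CdsA_1_1, CdsA_1_2 and cdsA_2 (limma, adjusted p = 0.019, 0.019 and 0.0123). The median difference of all probes in that fit was -0.79. inaC_2F2R, which neither of the remaining diapausing arrays detected, was called as well (at least 2.01-fold lower; limma, adjusted p = 0.0125), which made 4 of 15 probes against 7.69% of all. Over the alternative settings in which all 9 arrays were kept, the adjusted p of CdsA_1_1 in this comparison was between 0.0958 and 0.399. On the slide that carried diapausing replicate 27, CdsA_1_1 differed from the young array by -0.06, and on the other 2 slides by -2.55 and -2.13. For reproducing against young females the difference was negative on each of the 3 slides, at -0.55, -1.76 and -2.30.

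Between diapausing and reproducing females no *CdsA* difference passed the test. The log2 differences were -0.04, -0.20 and -0.49 for CdsA_1_1, CdsA_1_2 and cdsA_2 (limma, adjusted p = 0.949, 0.851 and 0.655), and the 95% confidence interval for CdsA_1_1 ran from -1.33 to 1.24. A difference of more than 2-fold in either direction therefore lay inside the interval. Without reproducing replicate 40 the differences were -0.52, -0.53 and -0.73 (limma, adjusted p = 0.692, 0.706 and 0.583). Without diapausing replicate 27 they were -0.71, -0.88 and -1.21 (limma, adjusted p = 0.371, 0.228 and 0.0729).

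**Figure D2:**
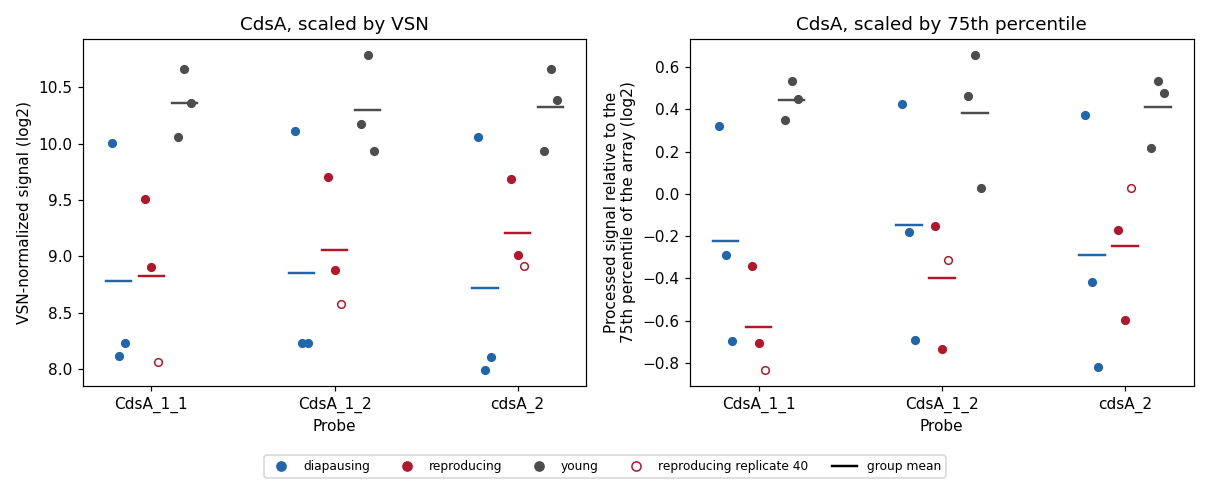
Signal of the 3 *CdsA* probes (log2, vertical axes) on the 9 arrays after VSN (left) and relative to the array's 75th percentile (right). Points are arrays and short lines group means; on both scales the CdsA_1_1 points of young females lie above those of all other arrays, and diapausing replicate 27 is the highest of the older females.

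The distance between *CdsA* in young and older females depended on how arrays were scaled. Relative to the 75th percentile of each array, CdsA_1_1 was at 0.35, 0.53 and 0.45 in young, 0.32, -0.29 and -0.69 in diapausing and -0.34, -0.71 and -0.83 in reproducing females. The arrays of young females were again above all others. On this scale the difference between diapausing and young females fell from -1.58 to -0.66 for CdsA_1_1 (SE 0.30; limma, adjusted p = 0.204), and it was -0.53 for CdsA_1_2 and -0.70 for cdsA_2. The difference of CdsA_1_1 between reproducing and young females was also smaller, at -1.07 (SE 0.30), but CdsA_1_1 was called (limma, adjusted p = 0.037), while the median of all probes was at 0.29. With CG7650_1_1L (at least 2.10-fold higher, limma, adjusted p = 0.0457) this made 2 of 15 probes called in that comparison, against 19.2% of all probes. Without reproducing replicate 40 it was 0 of 15, against 18.3%.

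Calmodulin binds calcium and regulates channels and enzymes of the cascade. cam_1 was at 7.99, 8.04 and 8.06 in young females, the smallest spread of the 7 probes detected on all arrays (SD 0.04). It was at 7.89, 8.34 and 8.41 in diapausing and at 7.10, 7.54 and 8.18 (replicate 40) in reproducing females. The groups of diapausing and reproducing females overlapped only through reproducing replicate 40, and the log2 difference was 0.61 (SE 0.36; limma, adjusted p = 0.488). Without that array it was 0.79 (SE 0.33; limma, adjusted p = 0.221). Diapausing females were 0.19 above (adjusted p = 0.792) and reproducing females -0.42 from (adjusted p = 0.567) young females in limma. Relative to the 75th percentile of the array the values of cam_1 spread further and its differences changed. Diapausing females were then 1.1 (SE 0.57) above young females (limma, adjusted p = 0.261), a larger difference than those of the *CdsA* probes on that scale, and 1.06 (SE 0.57) above reproducing females (limma, adjusted p = 0.273). Without reproducing replicate 40 the second of these was 1.62 (SE 0.50; limma, adjusted p = 0.106). Reproducing and young females differed by 0.047 there, or by -0.52 without that array, against -0.66 without it after VSN.

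*norpA*, the phospholipase C itself, was low on a single array after VSN. norpA_1F was at 7.63, 7.08 and 7.32 in diapausing, 7.26, 7.37 and 5.49 (replicate 40) in reproducing and 7.03, 7.95 and 8.21 in young females. With replicate 40, reproducing females lay -1.02 (SE 0.55) from young females in the limma fit (adjusted p = 0.343), and diapausing females 0.63 (SE 0.55) above reproducing females (adjusted p = 0.545). Without it the differences were -0.37 (adjusted p = 0.733) and -0.07 (adjusted p = 0.973). Diapausing and young females differed by -0.39 (SE 0.55; limma, adjusted p = 0.747). On the 75th percentile scale, norpA_1F was at -2.05, -1.33 and -1.61 in diapausing and at -2.60, -2.24 and -3.40 (replicate 40) in reproducing females. The groups then did not overlap, also without replicate 40, and the difference was 1.08 (SE 0.39; limma, adjusted p = 0.113), or 0.75 without that array (limma, adjusted p = 0.219).

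The summed signal of genes expressed in the eye was low on the same array. The summed processed signal of 17 probes of 11 photoreceptor and eye genes (*ninaE*, *Rh3*, *Rh5*, *Arr1*, *Arr2*, *trp*, *inaD*, *ninaC*, *Gbeta76C*, *gl* and *so*) was 21030 on reproducing replicate 40 and between 97480 and 240100 on the other 8 arrays. Of these probes 11 were detected there and 13 or 14 on each other array. Relative to the 75th percentile of the array the sum was 48.4 there and 163 to 304 elsewhere. Bright probes weigh most in both sums, such as Arr1_2 (group mean of 15.8 in diapausing females after VSN). Dim probes such as Trp_2 (3.32) hardly count. The part of the eye genes in the *norpA* result was not tested. In whole bodies, fewer cells of a type and less RNA per cell cannot be told apart.

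The *norpA* probe of the opposite strand was weak. The processed signal of norpA_1F_K was between 8.53 and 23.2 and was well above background on 4 of 9 arrays. That of norpA_1F was between 41.2 and 277, above background on all 9. After VSN, norpA_1F_K was at 4.09, 3.61 and 3.06 in diapausing, 3.3, 3.6 and 3.22 in reproducing and 3.82, 4.77 and 4.54 in young females. All 3 arrays of reproducing females were below those of young females, and none of them was above background. The level there was at least 1.80-fold lower than in young females, where 2 of 3 arrays detected the probe (limma, adjusted p = 0.218). Of the 6 probe pairs on the array that overlap on opposite strands, the others belong to *per*, *Hsc70-4*, *ari-1*, *spin* and *ato*. In 3 of these, *per*, *ari-1* and *spin*, the probe without the suffix K was detected on more arrays than its partner, as with *norpA*. The other pairs went the other way. Both *Hsc70-4* probes were detected on all 9 arrays, with a median processed signal of 3460 for the K probe and 257 for its partner. For *ato* the K probe was detected on 1 array and its partner on 0.

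**Figure D3:**
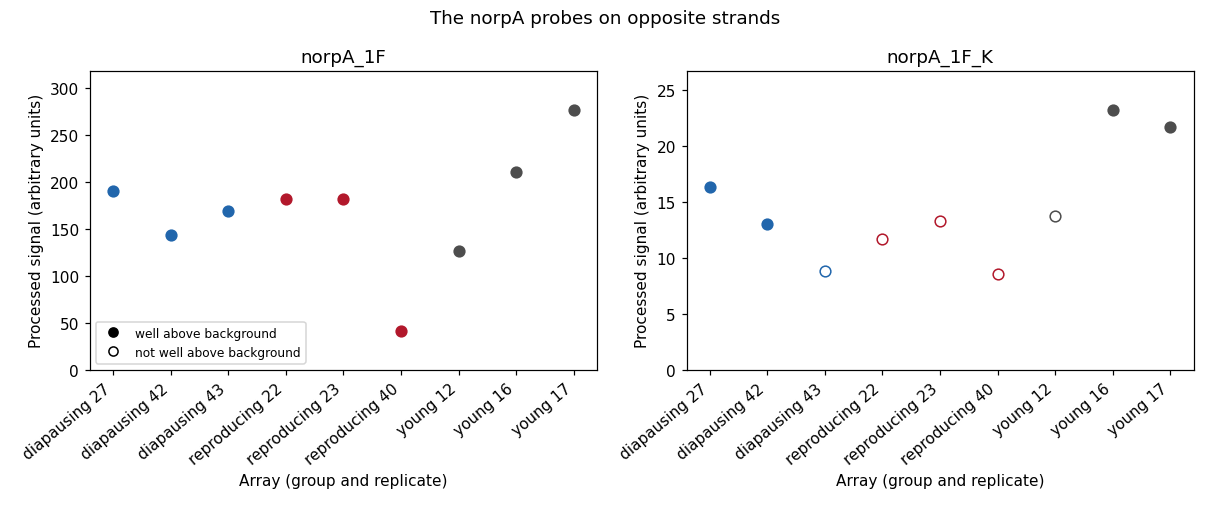
Processed signal (vertical axes, arbitrary units, separate scales) of the *norpA* probes norpA_1F (left) and norpA_1F_K (right) on the 9 arrays (horizontal axes; blue diapausing, red reproducing, grey young). Filled points are well above background: all 9 for norpA_1F and 4 for norpA_1F_K, and norpA_1F is lowest on reproducing replicate 40.

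The *Ankyrin* probes, which shared no 15 bases, varied together over the 9 arrays (Pearson r = 0.973, a description). Ankyrin_1_L was at 8.17, 7.31 and 7.31 in diapausing, 7.90, 7.66 and 6.71 (replicate 40) in reproducing and 7.59, 8.47 and 8.37 in young females. Ankyrin_1R was at 7.96, 7.33 and 7.27, at 8.09, 7.67 and 6.63, and at 7.55, 8.27 and 8.14 in the same order. The groups overlapped for both, and reproducing replicate 40 was the lowest of the 9 arrays. The limma log2 differences for Ankyrin_1_L were 0.17 between diapausing and reproducing (adjusted p = 0.833), -0.55 between diapausing and young (adjusted p = 0.539) and -0.72 between reproducing and young females (adjusted p = 0.407). For Ankyrin_1R they were 0.06, -0.46 and -0.52 (adjusted p = 0.930, 0.604 and 0.567). Without replicate 40 the difference between diapausing and reproducing females became -0.28 for Ankyrin_1_L and -0.45 for Ankyrin_1R, and that between reproducing and young females -0.32 and -0.066. With the 75th percentile scaling, the arrays of diapausing females lay above those of reproducing females for both probes, by 0.62 and 0.51 (limma, adjusted p = 0.186 and 0.273), or by 0.54 and 0.37 without replicate 40. With all 9 arrays both of these scalings put diapausing females above reproducing females, and without replicate 40 they gave opposite directions.

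**Figure D4:**
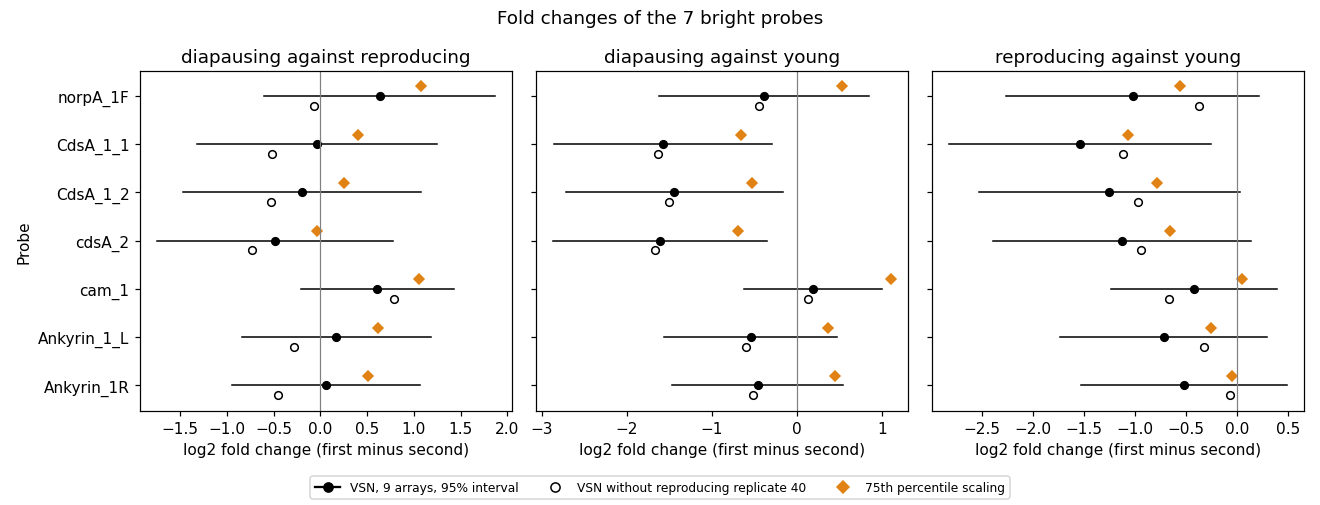
Log2 fold changes (horizontal axes, first group minus second) of the 7 probes detected on all arrays, in the 3 comparisons. Black points and lines are the VSN values with 95% confidence intervals, open points leave out reproducing replicate 40, and diamonds come from the 75th percentile scaling; the *CdsA* probes lie left of 0 in both comparisons with young females in all 3 settings.

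The position factors touched several of these values. On reproducing replicate 40 the scanner software had divided the signals of Ankyrin_1_L, Ankyrin_1R, CdsA_1_2, CG7650_1_1L, norpA_1F_K and both *inaC* probes by factors between 0.288 and 0.412, and those of norpA_1F by 1.56. For CdsA_1_2 the factor was also 0.324 and 0.37 on young replicates 16 and 17, and for CG7650_1_1L it was 0.463 and 0.588 there. For CdsA_1_1 and cdsA_2 it stayed between 0.932 and 1.27 on all arrays, and both gave the same direction as CdsA_1_2 in the comparisons with young females. With the mean signals, taken before this step and before background subtraction, 0 of 15 probes were called in each comparison (1.44%, 3.37% and 5.29% of all probes).

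The remaining probes were dim, and their values are close to the limit of detection. Where a probe was detected on no array of 1 group, only an approximate bound on the fold change is given. Undetected signals of that group were raised to the lowest detected signal of their array where they lay under it. Some lay above it, as for CG7650_1_1L in young females (4.04 and 4.27 against 4.01 and 3.97), and entered as measured. Undetected arrays of the other group also entered as measured. These bounds, here, above and below, are therefore not strict, and they leave out the spread between arrays.

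*inaC* encodes the protein kinase C of the eye. inaC_2F2R was above background on all 3 arrays of young females, at 4.81, 4.17 and 4.29, and on none of reproducing females, at 3.40, 3.22 and 3.32. The groups did not overlap, and the level was at least 1.86-fold lower in reproducing females, taking the lowest detected signal of each array as the bound where it was higher (limma, adjusted p = 0.392). In diapausing females it was at 4.71 (replicate 27, above background), 1.67 and 2.55, and the log2 difference from young females was -1.45 (SE 0.67; limma, adjusted p = 0.344). inaC_1R was between 1.32 and 2.99 and above background on no array.

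The *inaF* probe was detected on all arrays of diapausing and on none of young females. Inaf_2F was at 4.99, 3.70 and 3.82 in diapausing, 3.98, 4.30 and 2.98 (replicate 40) in reproducing and 3.96, 4.01 and 3.26 in young females, and the groups overlapped. It was at least 1.13-fold higher in diapausing than in young females (limma, adjusted p = 0.697), and 0.42 (SE 0.49) above reproducing females on the log2 scale (limma, adjusted p = 0.655), which became -0.011 without replicate 40. Relative to the 75th percentile it was at -4.70, -4.70 and -5.10 in diapausing and -5.76, -6.13 and -6.65 in young females, which did not overlap, and it was the 1 probe of 15 called in that comparison (at least 2.13-fold higher; limma, adjusted p = 0.0382), against 8.17% of all probes. The median of all probes was at 0.43 on that scale and at -0.48 after VSN.

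*rdgB* moves phosphatidylinositol between membranes. RdgB_2 was at 4.19, 4.07 and 4.12 in young, 4.72, 3.09 and 3.06 in diapausing and 3.78, 3.70 and 2.95 in reproducing females. All reproducing arrays were below the young arrays, with a log2 difference of -0.65 (SE 0.49; limma, adjusted p = 0.496) that was -0.31 without replicate 40, and diapausing females differed from young females by -0.51 (SE 0.49; limma, adjusted p = 0.603). RdgB_1 was between 1.06 and 3.93 and above background on 1 array, diapausing replicate 42.

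For the phosducin-like *CG7650*, 1 of the 2 probes was detected on some arrays, and its group mean was highest in reproducing females. CG7650_1_1L was at 4.84, 4.72 and 4.58 (replicate 40) in reproducing, 4.69, 3.41 and 3.63 in diapausing and 4.04, 2.88 and 4.27 in young females. The reproducing arrays, 2 of 3 of them above background, did not overlap those of young females, which were all below detection, and the level was at least 1.52-fold higher (limma, adjusted p = 0.302). Between diapausing and reproducing females the groups overlapped through diapausing replicate 27, and the log2 difference was -0.80 (SE 0.48, limma, adjusted p = 0.488). CG7650_1_2L was between 1.08 and 3.19 and above background on no array, so a second site of the gene gave no reading.

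Counted over the set after VSN, separate groups of arrays were found for 0 of 15 probes between diapausing and reproducing females, against 13.5% of all probes. Between diapausing and young females this held for 1 probe, CdsA_1_1, against 22.6% of all probes (18.3% were lower in diapausing females). Between reproducing and young females it held for 7 probes against 31.2% of all probes: the 3 *CdsA* probes, norpA_1F_K, inaC_2F2R and RdgB_2 lay lower in reproducing females (21.6% of all probes did) and CG7650_1_1L was higher (9.62%). The counts were different on the 75th percentile scale. Between diapausing and reproducing females the groups were separate for 6 of 15 probes, against 29.8% of all probes. These were norpA_1F, Inaf_2F, both *rdgB* and both *Ankyrin* probes, each higher in diapausing females (18.3% of all probes were). Among them RdgB_1 was detected on 1 diapausing and 0 reproducing arrays, RdgB_2 on 1 and 2, and Inaf_2F on 3 and 2. On that scale 5 of 15 were separate between diapausing and young and 4 of 15 between reproducing and young females, against 40.4% of all probes in each. The median log2 difference of the 15 probes was 0.06, -0.51 and -0.72 in the 3 comparisons, beside -0.21, -0.48 and -0.18 for all probes. With the 75th percentile scaling it was 0.50, 0.41 and -0.25, beside 0.23, 0.43 and 0.29.

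Of 12 other phototransduction genes with 18 probes (*Rh3*, *Rh5*, *ninaE*, *Gbeta76C*, *trp*, *inaD*, *ninaC*, *Arr1*, *Arr2*, *CaMKII*, *FKBP59* and *ninaD*), 0 probes were called in either direction in any comparison. At an unadjusted p under 0.05, 1 was higher and 3 were lower in diapausing than in reproducing females, and against young females 1 was lower in diapausing and 5 in reproducing females. Among those detected on all arrays of both groups, the largest difference between diapausing and reproducing females was that of FKB59_1_1 (*FKBP59*, an immunophilin that binds TRP-family channels), at -1.84 (SE 0.55; limma, adjusted p = 0.194). Without diapausing replicate 27 that was -2.51, and the probe was called (limma, adjusted p = 0.0163). In that fit 25 of all 208 probes (12%) were called, 22 of them lower in diapausing females. Between diapausing and young females the largest difference was that of Rh3_1_2 (*Rh3*, an ultraviolet opsin), at -2.79 (SE 1.40, limma, adjusted p = 0.350). Rh3_1_2 was at 11.35, 5.84 (replicate 42) and 9.92 in diapausing females, and the difference was -1.21 without replicate 42. The other *Rh3* probe, Rh3_1_1, also detected on all 9 arrays, differed by -0.28 (SE 1.37; limma, adjusted p = 0.926). Between reproducing and young females the largest difference was that of Gbeta76c_2F2R (*Gbeta76C*, the G protein beta subunit of the eye), at -2.68 (SE 0.88; limma, adjusted p = 0.163), with 12.14 and 12.41 on the first reproducing arrays and 8.77 on replicate 40. Without that array the difference was -1.47 (SE 0.52; limma, adjusted p = 0.204).

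Over the 9 arrays, the genes whose brightest probe was most like norpA_1F were *Rh5* (Pearson r = 0.972) and *Slob* (r = 0.966), among 109 genes with a median r of 0.347. For cdsA_2 they were *Hsp68* (r = 0.947) and *Hsf* (r = 0.914), with a median of 0.556. For Ankyrin_1_L they were *ari-1* (r = 0.975) and *InR* (r = 0.939), and for cam_1 *RpL19* (r = 0.753) and *btv* (r = 0.460), with medians of 0.547 and -0.337. Relative to the 75th percentile, *Rh5* and *Hsp68* stayed first (r = 0.943 and 0.716), and *norpA* and *per* came first for Ankyrin_1_L and cam_1 (r = 0.90 for both). These correlations share each array's scaling and the low values of reproducing replicate 40 and are a description only.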

How the data were processed

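RNA of 9 samples was hybridized to 1-colour Agilent arrays. The scanner files deposited by the authors (Feature Extraction 9.5.1.1 in the file headers) hold intensity values: the mean and background signal of each spot, and a processed signal after background subtraction and division by a position factor, a ratio that the deposited files also hold. None was scaled between arrays. The authors' deposited table of 197 intensities per array was an alternative only. Groups were read from abbreviations in the sample titles.

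Here copies were averaged without outlier spots, and VSN, rewritten in R 4.3.3, was fitted on experimental and 111 spike-in spots (5 slices, 7 rounds, trimming quantile 0.5), before limma 3.58.1 over all 9 arrays. The processed signal was put into VSN in place of the mean signal that had been planned. This was decided after the data had been seen, because copies of a probe differed less with it on all 9 arrays (median log2 difference of 0.069 to 0.131, against 0.101 to 0.298 after background subtraction alone) and spike-in copies spread less (on reproducing replicate 40, SD 0.303 against 0.874). The script was tested on simulated data. Each probe of the 8 genes is named. Other pathway genes are named only where called or, if none was, for the largest difference among detected probes, and the 2 genes most alike by correlation are named for members detected on all arrays. Members and lists were chosen with earlier results of these data known. The number of arrays limits the precision. Eye, neuronal and maternal markers were counted as cell type lists. Alternatives were other trimming, normexp (offset 50) and scaling settings, probe filters, gene averages, slide as a block, and leaving out each array. Figures used Python 3.11.15 and matplotlib 3.10.9.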

Additional observations from a re-analysis of the deposited data

How the results depend on the processing

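The replicate numbers of the labels are not shared between groups, but each of the 3 slides held 1 array of each group. With slide as a block, which compares arrays within slides, 0 of the 15 probes were called in each comparison, and 2, 3 and 6 of all probes for diapausing against reproducing, diapausing against young and reproducing against young females, where 2, 7 and 10 were called otherwise. Probes called among the 15 changed from 0 to 1 (Inaf_2F) in diapausing against young females with the processed signal at the 75th percentile. This held with and without reproducing replicate 40, where 8.17% and 10.6% of all probes were called. When single arrays were left out, calls among the 15 ranged from 0 to 4, the 4 without diapausing replicate 27 (7.69% of all probes called). In reproducing against young females they changed to 2 at the 75th percentile (CdsA_1_1 and CG7650_1_1L, with 19.2% of all probes called). Without reproducing replicate 40 they were 0 there (18.3% of all probes). They changed to 1 (CdsA_1_1) with normexp and the 75th percentile, normexp and quantiles, or the processed signal at its median. Of all probes 13.9%, 11.1% and 15.4% were called in these settings. The median setting was chosen after seeing the data, as were all combined with leaving out reproducing replicate 40.

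Over all probes, calls in diapausing against reproducing females were 4 with a trimming quantile of 0.9, 11 at the 75th percentile (10 without reproducing replicate 40), 12 and 13 with normexp, 11 with housekeeping genes, 6 at the median, 1 in the deposited table, 1 with gene averages and 0 with only 2 groups in the fit (15 at an unadjusted p under 0.05), and 2 to 25 with single arrays left out. In diapausing against young females they were 17 at the 75th percentile (22 without replicate 40), 3 with normexp and quantiles, 4 in the deposited table, 4 at the median and 3 with the block, and 3 to 16 with single arrays left out. In reproducing against young females they were 6 with VSN on spike-ins alone, 40 at the 75th percentile (38 without replicate 40), 29 and 23 with normexp, 6 with outlier spots kept, 6 with the block, 32 at the median and 5 in the deposited table without replicate 40, and 6 to 18 with single arrays left out. Calls in diapausing against reproducing females were 2 higher and 0 lower after VSN, but 2 higher and 9 lower with housekeeping genes and 4 higher and 9 lower with normexp and quantiles.

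The direction of small differences turned with the scaling. Values given as before position correction come from the mean signal, which also lacks background subtraction. Between diapausing and reproducing females the log2 difference of CdsA_1_1 became 0.13 before position correction and with the quantile of 0.9, 0.41 at the 75th percentile (0.30 without replicate 40), 0.43 and 0.54 with normexp and 0.17 at the median. That of CdsA_1_2 became 0.32 before position correction, 0.25 (0.29 without replicate 40), 0.54, 0.74 and 0.017, and that of cdsA_2 0.095 at the 75th percentile without replicate 40. norpA_1F became -0.045 in the deposited table, and -0.10 without replicate 40 there and before position correction. Inaf_2F became -0.08 with normexp and quantiles and -0.059 in the deposited table without replicate 40. Ankyrin_1_L and Ankyrin_1R became -0.54 and -0.65 in the deposited table (-0.31 and -0.48 without replicate 40), -0.021 and -0.14 with housekeeping genes, and -0.19 and -0.26 before position correction without replicate 40. With single arrays left out the ranges were -0.071 to 0.95 for norpA_1F, -0.03 to 0.71 for Inaf_2F, -0.71 to 0.34 for CdsA_1_1, -0.88 to 0.17 for CdsA_1_2, -1.21 to -0.079 for cdsA_2, -0.28 to 0.45 for Ankyrin_1_L and -0.45 to 0.41 for Ankyrin_1R.

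Between diapausing and young females norpA_1F became 0.53 at the 75th percentile with and without replicate 40, 0.36 and 0.15 with normexp and 0.085 at the median, and RdgB_2 0.41 and, with normexp, 0.29. Ankyrin_1_L became 0.37, 0.23 and 0.027, and Ankyrin_1R 0.45, 0.30 and, at the median, 0.012. inaC_2F2R became 0.23 with normexp and the 75th percentile, and CdsA_1_2, whose normexp signal had no position correction, 0.15 and 0.057. Between reproducing and young females cam_1 became 0.047, 0.037 and 0.01, RdgB_2 0.11 with normexp, and Ankyrin_1R 0.057 in the deposited table and 0.081 at the 75th percentile without replicate 40. The causes were not tested. For CdsA_1_1 and cdsA_2 no alternative turned either comparison with young females.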

Other observations

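Marker lists of other cells were counted as a description, with no test of a list. The maternal list held 20 probes of 9 genes with maternal transcripts in the ovary of *D. melanogaster*. Among these probes, 0 had a higher fitted value in diapausing than in reproducing females. Their median log2 difference was -1.05, against -0.21 for all probes, of which 60.1% were lower in diapausing females. From the same arrays the paper had reported *Hop*, *Hsp83*, *dco*, *tws*, *slmb* and *Fmr1*, all on this list, as lower in diapausing females. It had also reported *tws*, *slmb*, *Fmr1* and *Hsp26* as higher in reproducing than in young females. The list was chosen with earlier results known, so the directions of these genes are no separate finding. Between diapausing and young females 18 of the 20 were lower (median -0.45), beside 80.3% of all probes (median -0.48), while against young females 18 had a higher value in reproducing females (median 0.60, against -0.18 for all probes), where Hsp_26_1F1R was called. The summed processed signal of these probes was between 8737 and 27240 in reproducing, 4544 and 15000 in diapausing and 8157 and 10620 in young females. Of 16 probes of 9 neuronal genes, 10 were above background on at least 1 array, and the median difference between diapausing and reproducing females was -0.23, close to that of all probes. Against young females it was -1.12 in diapausing and -0.41 in reproducing females, beside -0.48 and -0.18 for all probes. Slo_1F1R was called lower in diapausing and in reproducing than in young females, and shakB_2 in reproducing females. In the eye list so_1Fb1R was called lower in reproducing than in young females. The median difference of the eye list was 0.68 between diapausing and reproducing females, -0.77 between diapausing and young, and -1.67 between reproducing and young females. Those of all probes were -0.21, -0.48 and -0.18. The reproducing arrays included replicate 40, on which the summed signal of the eye genes was low. The part of these differences in the values of the phospholipase C and calcium cascade was not tested.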
